A study of Mus musculus with 58 samples.

Results

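The 6 genes described here, Ppp1r1b, Pde10a, Rgs9, Penk, Scn4b and Pde7b, were chosen by name because they are known for high expression in the striatum, while the tissue sampled was somatosensory cortex. All 6 were found among the 9636 genes of a bulk RNA-seq count table, and they were followed across its 58 libraries. The mice were C57BL/6J, aged 2 to 4 months, and received 5 daily closed head injuries (5xCHI) or 5 sham procedures. SB239063 (SB), a p38 MAPK inhibitor, was given into the peritoneum at 20 mg/kg 30 min after every procedure, and controls received the saline vehicle. Cortex was taken in the chronic phase, roughly 1 month on, where the design names 18 and 34 days without assigning animals to either. The groups were 5xCHI + SB (19 libraries), 5xCHI + vehicle (20), sham + SB (5) and sham + vehicle (14), from 35 females and 23 males. The labels give 4 cohorts in each sex, so cohort and sex cannot be told apart across sexes, and sham + SB mice were found in cohorts F1, F2, M1 and M2 only. Libraries are named below by sex, group and replicate number.

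The striatum lies beneath the cortex and is made up mostly of medium spiny neurons, inhibitory cells that receive dopamine and signal largely through cyclic AMP. The 6 genes encode parts of that signalling and of the neurons' output. Penk encodes the precursor of the enkephalin opioid peptides, which mark the indirect pathway neurons. Rgs9 encodes a GTPase-activating protein that shortens G protein signalling. Pde10a and Pde7b encode phosphodiesterases, of which the first breaks down cyclic AMP and cyclic GMP and the second cyclic AMP. Ppp1r1b encodes DARPP-32, an inhibitor of protein phosphatase 1 that acts downstream of dopamine receptors. Scn4b encodes a beta subunit of voltage-gated sodium channels. Most of these genes are also expressed in some cortical neurons.

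RefSeq promoter sequences of build GRCm38.p6 were at hand for 4 of the 6 genes. Shown are the 250 bases before the Rgs9 start and before the second listed Pde10a start, because these genes had the widest spread between libraries and neither window overlaps an annotated exon. The Rgs9 window is chr11:109298182-109298431 on the minus strand, and the Pde10a window is chr17:8849735-8849984 on the plus strand. Both are written 5′ to 3′ with the letters CCAAT, or their reverse complement ATTGG, in capitals.
Rgs9: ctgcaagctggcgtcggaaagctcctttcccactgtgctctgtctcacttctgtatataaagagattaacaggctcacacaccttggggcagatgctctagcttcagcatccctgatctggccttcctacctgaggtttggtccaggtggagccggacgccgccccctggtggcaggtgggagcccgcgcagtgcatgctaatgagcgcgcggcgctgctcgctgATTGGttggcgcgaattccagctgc
Pde10a: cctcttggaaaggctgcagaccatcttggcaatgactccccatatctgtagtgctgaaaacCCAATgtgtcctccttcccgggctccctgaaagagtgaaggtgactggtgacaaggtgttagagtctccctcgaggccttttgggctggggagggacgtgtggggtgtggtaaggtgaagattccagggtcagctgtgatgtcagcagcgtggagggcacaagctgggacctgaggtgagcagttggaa
On either strand, CCAAT was found in 33.8% of 32851 such mouse windows. It was present at these Rgs9 and Pde10a starts and at that of Scn4b. It was absent at the Pde7b start and at the other Pde10a start. TATAAA, held by 12.4% of all windows, was found once at Rgs9 and at none of the other 4 windows, and the cyclic AMP response element TGACGTCA, held by 1.55%, was found in none of the 5.

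Rgs9 was spread over a 15.1-fold range, from 7.80 to 118 CPM (counts scaled to library size, here with TMM factors), with a median of 13.5 CPM. Its values left a gap: 9 libraries lay at 35.3 to 118 CPM and the other 49 at 7.80 to 18.7 CPM, on either side of 26.9 CPM, which is 2 times the median. These 9 libraries were picked by their Rgs9 level, so what Rgs9 shows in them is a description.

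The highest Rgs9 value, 118 CPM, was in male 5xCHI + SB replicate 1 of cohort M2. Next came 4 libraries of cohorts F1 and M1: female 5xCHI + SB replicate 9 at 52.0 CPM, female sham + vehicle replicate 9 at 47.2 CPM, female 5xCHI + vehicle replicate 8 at 46.8 CPM and male 5xCHI + SB replicate 3 at 43.9 CPM. The last 4 were female sham + SB replicate 3 at 40.9 CPM, male 5xCHI + vehicle replicate 6 at 38.1 CPM, female sham + vehicle replicate 2 at 37.8 CPM and male sham + SB replicate 1 at 35.3 CPM. Every condition held some of them: 3 of 19 libraries of 5xCHI + SB, 2 of 20 of 5xCHI + vehicle, 2 of 5 of sham + SB and 2 of 14 of sham + vehicle. Their cohorts were fewer, with 5 of 10 libraries in F1, 2 of 6 in M1 and 2 of 6 in M2. The other 5 cohorts held none. The library numbers in the labels run from 1 to 61, and all 9 of these libraries have numbers of 22 or less. Cohorts M1, M2 and F1 hold the numbers 1 to 22, so library number and cohort cannot be told apart.

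**Figure D1:**
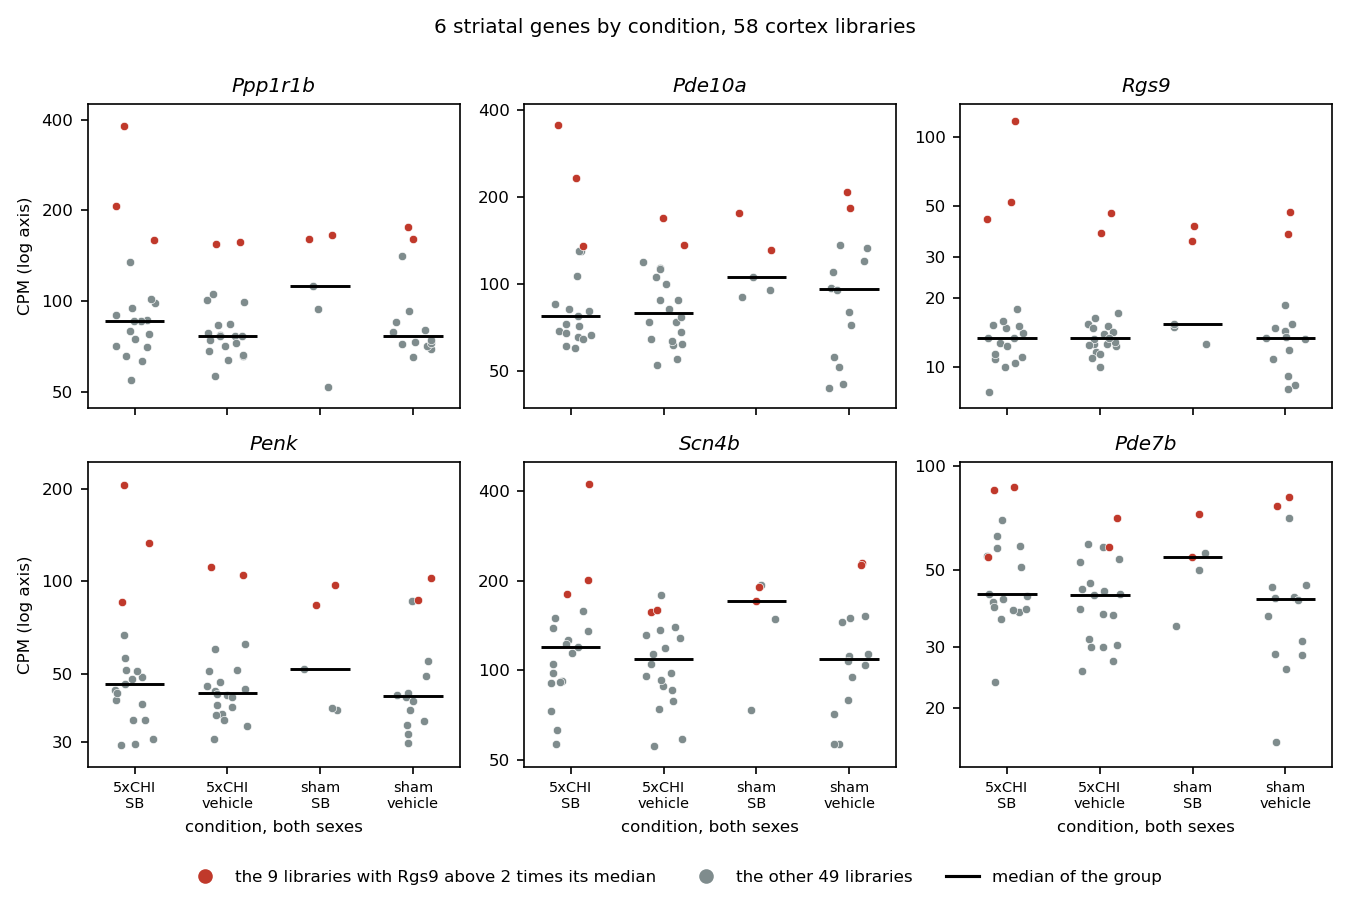
Each point is a library, on a log axis of CPM, for each of the 6 genes and the 4 conditions with both sexes pooled; bars are group medians, and red marks the 9 libraries with Rgs9 above 26.9 CPM. Red points stand at the top of each condition for Rgs9 and Ppp1r1b, and mix with grey ones for Pde7b.

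The other genes were high in many of the same libraries. Of each gene's own 9 highest libraries, the 9 chosen on Rgs9 made up 9 for Ppp1r1b, 8 for Pde10a, 8 for Penk, 7 for Scn4b and 6 for Pde7b. Of all 9636 genes, 111 (1.15%) shared at least 6. Ppp1r1b had 155 to 382 CPM in the 9 libraries and 51.9 to 141 CPM in the other 49, with no overlap. Penk had 83.9 to 206 CPM in the 9 and 29.4 to 86.3 CPM in the other 49, of which 1 (female sham + vehicle replicate 7) exceeded the lowest of the 9. Pde10a had 132 to 356 CPM in the 9 and 43.8 to 137 CPM in the others, with 2 of the 49 above the lowest of the 9. The overlap was wider for the remaining genes. Scn4b had 157 to 423 CPM in the 9 and 55.7 to 193 CPM in the others, with 4 of the 49 above the lowest of the 9. Pde7b had 54.4 to 86.5 CPM in the 9 and 15.9 to 70.5 CPM in the others, with 9 of the 49 above the lowest of the 9.

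Male 5xCHI + SB replicate 1 was the highest of the 58 libraries for 5 of the 6 genes. It had 382 CPM for Ppp1r1b, 356 CPM for Pde10a, 118 CPM for Rgs9, 206 CPM for Penk and 423 CPM for Scn4b. For Pde7b it came second at 85.1 CPM, behind female 5xCHI + SB replicate 9 at 86.5 CPM. Female 5xCHI + SB replicate 9 and female sham + vehicle replicate 9 were each among the 3 highest libraries for 5 of the 6 genes. No library was among the 3 lowest for 4 or more of them.

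**Figure D2:**
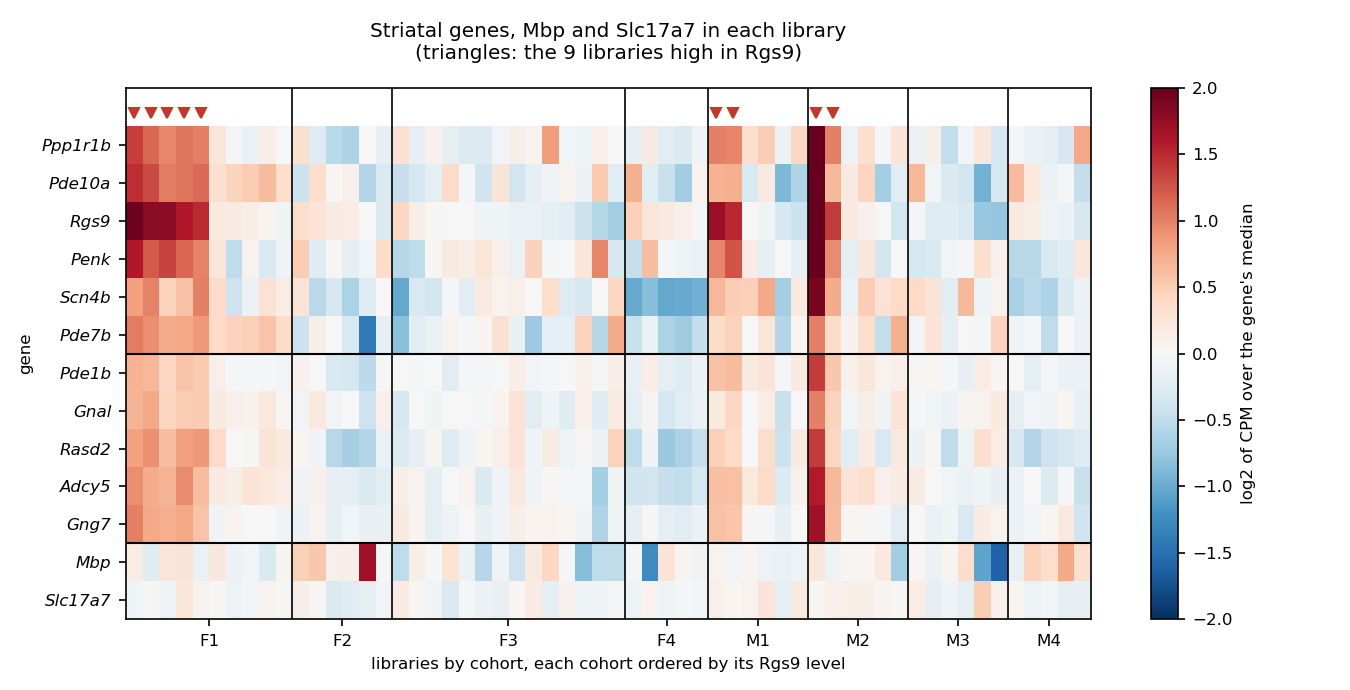
Colour gives log2 of CPM over the gene's median over 58 libraries, with libraries grouped by cohort and ordered within each by Rgs9. The 9 libraries high in Rgs9 (triangles) are red across the 6 genes (top block) and across 5 other genes (middle block). They are not red across Mbp and Slc17a7 (bottom block). The 5 genes of the middle block are those most like the 6 over these same libraries, so their colour is a description.

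Of other genes known for striatal expression, some followed the same libraries closely and others less so. Of a list of 26 further striatal genes, 12 had no row under their names among the 9636 genes. The dopamine receptors Drd1 and Drd2, the adenosine receptor Adora2a and Tac1 were among these 12. The list had 14 measured members. Its summed level was 1480 to 3090 CPM in 5xCHI + SB, 1500 to 2140 CPM in 5xCHI + vehicle, 1510 to 2150 CPM in sham + SB and 1170 to 2400 CPM in sham + vehicle libraries, and the 9 highest sums belonged to the 9 libraries high in Rgs9. Of the 14 genes, 8 shared at least 6 of their 9 highest libraries with those 9, where 1.15% of all genes did. The other 6 (Foxp1, Strip2, Dclk3, Ptpn5, Ano3 and Arpp21) shared 4 or 5. Adcy5, the main striatal adenylyl cyclase, had 202 to 407 CPM in those 9 libraries and 84.0 to 176 CPM in the other 49. Pde1b, a calmodulin-dependent phosphodiesterase, had 178 to 353 CPM in the 9 and 93.3 to 160 CPM in the other 49. Gnal, the stimulatory G protein alpha subunit of the striatum, had 178 to 311 CPM in the 9 and 114 to 189 CPM in the others, with 3 of the 49 above the lowest of the 9. Rasd2, a small GTPase known as Rhes, had 105 to 208 CPM in the 9 and 47.3 to 109 CPM in the others, with 1 of the 49 above the lowest of the 9. Gng7, a G protein gamma subunit outside that list, had 126 to 278 CPM in the 9 and 56.9 to 99.3 CPM in the other 49. Adcy5, Pde1b and Gng7 did not overlap between the sets. The 5 genes given here with ranges are those most like the 6 over these same libraries. Their separation is therefore a description. Of all 9636 genes, 6 had these 9 as their 9 highest libraries, Ppp1r1b and Rgs9 themselves included.

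Markers of cortical excitatory neurons did not separate those libraries. The 7 cortical excitatory neuron genes were all measured, and their summed level was 6280 to 9030 CPM in 5xCHI + SB, 6250 to 8590 CPM in 5xCHI + vehicle, 6150 to 8770 CPM in sham + SB and 4980 to 10100 CPM in sham + vehicle libraries. Of the 9 highest sums of that list, 1 belonged to the 9 libraries. Slc17a7, the vesicular glutamate transporter of cortical excitatory neurons, had 1280 to 1620 CPM in the 9 and 1110 to 1930 CPM in the other 49. Mbp, a myelin protein of white matter, had 2440 to 3470 CPM in the 9 and 939 to 9330 CPM in the other 49. Other lists stood between. The 6 measured claustrum genes summed to 136 to 364 CPM in the 9 and 129 to 276 CPM in the other 49, and 5 of the 9 highest sums belonged to the 9. Of that list, Synpr (141 CPM), Gnb4 (63.6 CPM) and Nr2f2 (18.5 CPM) were highest in male 5xCHI + vehicle replicate 6, though not every gene was. The 11 interneuron genes summed to 1260 to 1500 CPM in the 9 and 1080 to 1450 CPM in the others, with 4 of the 9 highest sums in the 9. Gad1, an enzyme of GABA synthesis, had 408 to 506 CPM in the 9 and 295 to 484 CPM in the other 49, and was highest in male 5xCHI + SB replicate 1. The part of these markers in the results was not tested. In bulk tissue, more cells of a type and more RNA per cell cannot be told apart. Whether the 9 libraries held tissue from outside the cortex was not tested.

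The likeness of each gene to the mean of the 6 was measured by Pearson's r of log2 CPM after group and cohort were taken out, and is given as a description, since all values share the same libraries. Over 58 libraries, the 8 genes most like the 6 included Pde1b (r = 0.91), Gnal (0.85), Rasd2 (0.83), Adcy5 (0.83), Gng7 (0.82), Klhl13 (0.75) and Pcp4l1 (0.67). The lowest values were those of Tcf4 (-0.57), Dlk2 (-0.55), Cds1 (-0.55) and Brd3 (-0.54). The 14 further striatal genes ran from 0.22 to 0.91 with a median of 0.62, while the 99th percentile of all genes was 0.433. Myelin genes had a median of 0.10 (14 genes), cortical excitatory neuron genes 0.07 (7 genes), deep layer genes 0.01 (13 genes) and interneuron genes 0.01 (11 genes).

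Some genes of other lists had values within the range of the striatal ones, though below their median. Bcl11b (0.51), Syt6 (0.47) and Foxp2 (0.40), which stand in the deep layer list, are also known in striatal neurons, as is Gad2 (0.45), which also makes GABA. Of gene families, Rgs8 had 0.55 and Pdyn, an opioid precursor that is also in the striatal list, had 0.50, whereas the sodium channel beta subunits Scn2b (0.27) and Scn3b (0.14) had less. Of 28 measured genes of the dopamine and cyclic AMP pathway, the median was 0.19, and Gnal, Adcy5 and, at the low end, Adcy8 (-0.49) stood furthest out. Without the 9 libraries high in Rgs9, the median of the further striatal genes was 0.34, with a range of -0.30 to 0.57, against a 99th percentile of 0.455. Rasd2 (0.57), Pde1b (0.51) and Strip2 (0.51) had the larger values there, and Gng7 had -0.07.

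**Figure D3:**
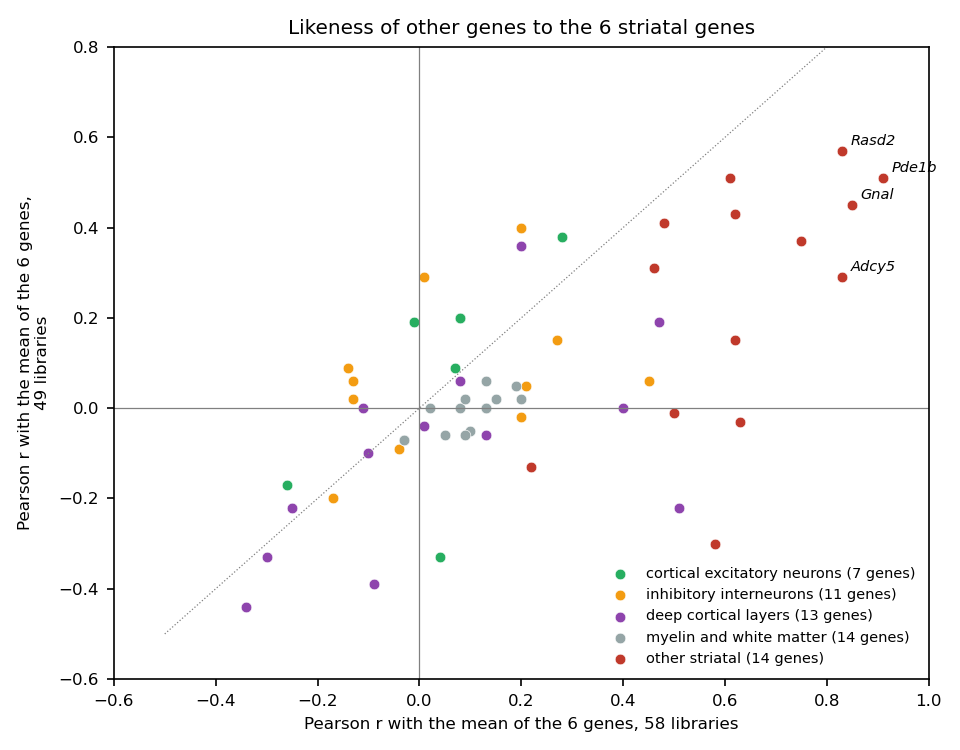
Each point is a gene of a list, with its Pearson r to the mean of the 6 genes over 58 libraries (x axis) and over the 49 libraries below the Rgs9 threshold (y axis), group and cohort taken out. Striatal genes (red) lie to the right, from 0.22 to 0.91, and mostly below the dotted line of equal values.

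The cut on Rgs9 split the libraries into sets of 49 and 9, and the 15 pairs of the 6 genes were correlated within each set. Among the 49 libraries below the Rgs9 threshold, r of the residual log2 CPM ran from -0.43 (Rgs9 with Penk) to 0.40 (Ppp1r1b with Scn4b), with a median of 0.01. None of the 15 passed the adjustment (permutation within cohorts, 100000 draws, two-sided, Benjamini-Hochberg over 15). By Spearman's rho 1 pair did, Ppp1r1b with Scn4b (rho = 0.48, adjusted permutation p = 0.0318). The cut on Rgs9 that left these 49 also took most of the highest libraries of the other genes. These tests therefore cannot tell unrelated genes from genes whose range was narrowed, and the values of the Rgs9 pairs are a description. Within the 9 libraries, r of log2 CPM ran from 0.56 to 0.96 with a median of 0.87. Those libraries were picked on Rgs9 and come from 3 cohorts, both sexes and all 4 conditions, with nothing taken out, so these r are a description and are not on the scale of the residual r above. They rest in part on male 5xCHI + SB replicate 1: without the 2 libraries farthest from the median, r ran from -0.45 to 0.98. Pde10a with Pde7b held at 0.98.

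Within cohorts, r of log2 CPM is again a description, since the cohorts are told apart here by the libraries picked on Rgs9. In the cohorts with high libraries, the median r of the 15 pairs was 0.93 in F1 (10 libraries), 0.80 in M1 (6) and 0.93 in M2 (6), and all 15 pairs were positive in each. In the cohorts without, it was -0.02 in F2 (6 libraries), -0.08 in F3 (14) and 0.01 in M3 (6), and 7, 7 and 8 of the 15 pairs were positive. F4 and M4, with 5 libraries each, were too small for a correlation.

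All 6 genes were among the most variable of the table. The SD of log2 CPM over 58 libraries was 0.76 for Rgs9 (rank 6 of 9636), 0.61 for Pde10a (19), 0.59 for Penk (25), 0.59 for Scn4b (27), 0.54 for Ppp1r1b (41) and 0.50 for Pde7b (61), while the median gene had 0.18. Since the 9 libraries were picked on Rgs9, leaving them out had to lower the SD of Rgs9, which was then 0.29 (rank 949). That of Ppp1r1b was 0.29 (864) and that of Penk 0.32 (562). Pde10a kept 0.42 (178), Pde7b 0.43 (158) and Scn4b 0.47 (104).

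Part of the spread followed the cohort. Over all 58 libraries cohort took 56.0% of the sum of squares of Scn4b, 50.3% of Pde7b, 36.4% of Pde10a, 34.9% of Ppp1r1b, 33.2% of Rgs9 and 20.7% of Penk, where the median gene had 27.3%. Over the 49 libraries it took 55.3% for Scn4b, 37.8% for Rgs9, 35.4% for Pde7b, 24.3% for Pde10a, 19.6% for Ppp1r1b and 11.0% for Penk, where the median gene had 26.2%. The 49 were left by the cut on Rgs9, so the Rgs9 share there is a description. Over all 58, condition took 2.70% to 10.3% beyond cohort, where the median gene had 7.36%. Scn4b was lowest in cohort F4, whose 5 libraries had 55.7 to 62.8 CPM, next to 85.5 to 229 CPM in F1, 73.6 to 136 CPM in F2 and 56.3 to 152 CPM in F3. Pde7b was highest in F1, at 54.8 to 86.5 CPM, next to 15.9 to 45.8 CPM in F2, 23.7 to 70.5 CPM in F3 and 25.9 to 38.6 CPM in F4. All 10 libraries of F1, the 5 with low Rgs9 included, thus lay above every library of F2 and F4 for Pde7b. Pde10a in F1 ran from 106 to 232 CPM, and in F3 from 61.1 to 120 CPM.

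Differences between cohorts of a sex were tested with edgeR's quasi-likelihood F test, adjusted by Benjamini-Hochberg over 9636 genes. Among female cohorts 5 of the 6 genes changed, where 50.0% of all genes did, a share that leaves little to read from the count. The adjusted p was 4.77e-06 for Pde7b, 7.39e-06 for Scn4b, 0.00099 for Pde10a, 0.00312 for Rgs9, 0.00352 for Ppp1r1b and 0.0607 for Penk. Without the 9 libraries Scn4b (adjusted p = 0.000309) and Pde7b (0.00807) passed, 2 of 6, where 31.2% of all genes did. At an unadjusted p below 0.05 it was 4 of 6, with Pde10a (p = 0.031) and Rgs9 (p = 0.0432) as well, where 44.4% of all genes were. The cut on Rgs9 took libraries from F1, M1 and M2 only, so the Rgs9 value without the 9 is a description and not a test. Among male cohorts Scn4b passed (adjusted p = 0.0275), 1 of 6, where 3.83% of all genes did. That call was lost on leaving out any 1 of 6 libraries: male 5xCHI + SB replicates 1, 5 and 6, male 5xCHI + vehicle replicates 1 and 3, and male sham + vehicle replicate 1. Without the 9 libraries 0 of 6 passed there by edgeR, with an adjusted p of 0.117 for Scn4b, where 0.353% of all genes did. At an unadjusted p below 0.05 it was 1 of the 6, Scn4b (p = 0.00297), where 14.6% of all genes were. DESeq2 on all 58 libraries called 6 of 6 in females, where it called 52.9% of all genes, and 1 of 6 in males, where it called 6.36%.

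**Figure D4:**
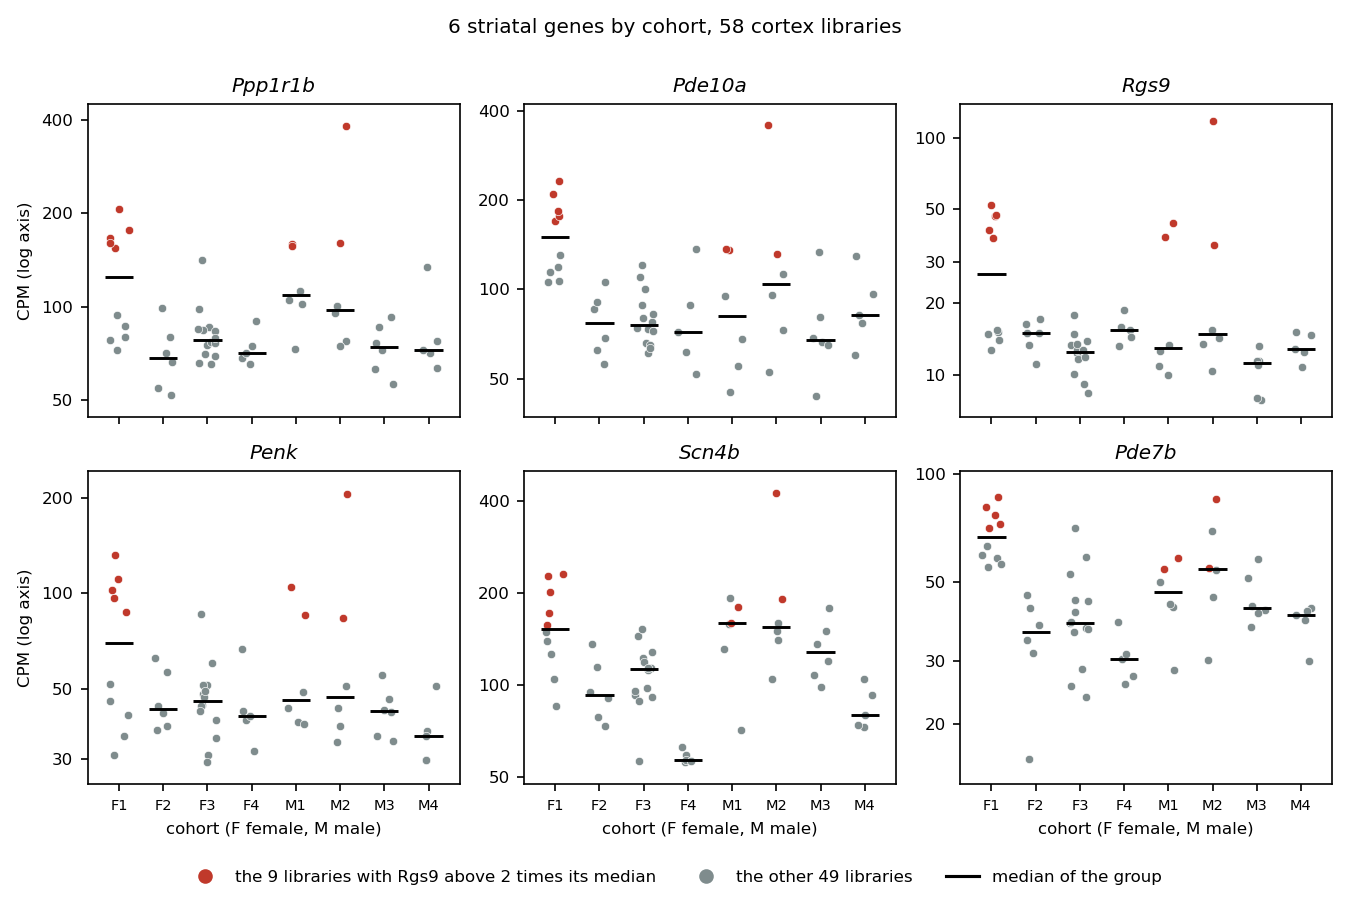
Each point is a library, on a log axis of CPM, for each of the 6 genes and the 8 cohorts (F female, M male); bars are cohort medians, and red marks the 9 libraries high in Rgs9, which occur in F1, M1 and M2. Scn4b is low in all 5 libraries of F4 (55.7 to 62.8 CPM), and Pde7b is high in all 10 of F1 (54.8 to 86.5 CPM).

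The first principal component of all other genes was taken over all 58 libraries, where it held 27.5% of the variance. Among the 49 libraries, Pde7b and, before cohort was taken out, Scn4b also went with that component. Pearson's r was -0.77 for Pde7b (rho = -0.77; -0.73 without the 2 farthest libraries) and -0.62 for Scn4b (rho = -0.63; -0.73 without them), each with an adjusted permutation p of 6e-05 over the 6 genes. Those draws ran over all 49 libraries without regard to cohort, so differences between cohorts enter these p-values. With cohort means taken out and draws kept within cohorts, r was -0.72 for Pde7b (adjusted permutation p = 6e-05) and -0.27 for Scn4b (0.154). The raw p of Pde7b was 1e-05, the smallest that 100000 draws can give. For Ppp1r1b, Pde10a, Rgs9 and Penk, r lay between -0.20 and 0.24, and none passed. With cohort means taken out, r was 0.37 for Penk (adjusted permutation p = 0.0688), a larger size than that of Scn4b. It was 0.26 for Ppp1r1b (0.154), -0.21 for Pde10a (0.154) and, as a description, -0.09 for Rgs9.

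The treatment question was whether SB after injury altered the cortex, and it was asked here of the 6 genes. Rgs9 had 7.80, 13.4 and 118 CPM (lowest, median and highest) in 19 libraries of 5xCHI + SB, and 9.98, 13.3 and 46.8 CPM in 20 libraries of 5xCHI + vehicle. Ppp1r1b had 54.7, 86.2 and 382 CPM in 5xCHI + SB, and 56.4, 76.6 and 157 CPM in 5xCHI + vehicle. The ranges of the 2 groups overlapped for both genes, and the SB group held the highest library.

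For Pde10a the values were 60.3, 77.5 and 356 CPM in 5xCHI + SB, and 52.6, 79.5 and 170 CPM in 5xCHI + vehicle. Penk had 29.4, 46.5 and 206 CPM in 5xCHI + SB, and 30.9, 43.5 and 111 CPM in 5xCHI + vehicle. Scn4b had 56.3, 120 and 423 CPM in 5xCHI + SB, and 55.7, 109 and 178 CPM in 5xCHI + vehicle. Pde7b had 23.7, 42.5 and 86.5 CPM in 5xCHI + SB, and 25.5, 42.4 and 70.7 CPM in 5xCHI + vehicle. The ranges again overlapped, and the medians differed by far less than the ranges.

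No gene of the table passed for SB in injured mice, and so 0 of the 6 did (0% of 9636 genes by edgeR; 680 genes at an unadjusted p below 0.05; 0 genes by DESeq2). The fitted log2 fold change, SB over vehicle, was positive for all 6 genes, with a median of 0.22 next to 0.0034 over all genes. It was 0.31 ± 0.15 for Ppp1r1b (SE; 95% interval 0.01 to 0.60; unadjusted p = 0.0428, adjusted p = 0.697 by edgeR). It was 0.30 ± 0.23 for Rgs9, 0.22 ± 0.12 for Pde7b, 0.21 ± 0.17 for Pde10a, 0.19 ± 0.19 for Penk and 0.15 ± 0.12 for Scn4b, with adjusted p from 0.714 to 0.865. Within cohorts the difference of mean log2 CPM of Ppp1r1b was positive in 6 of 8 cohorts and ran from -0.38 to 1.11, and that of Rgs9 was positive in 5 of 8 and ran from -0.38 to 1.34. The highest value of each was that of cohort M2, which holds male 5xCHI + SB replicate 1.

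Single libraries carried these values. Without male 5xCHI + SB replicate 1, the difference for SB in injured mice was 0.14 for Ppp1r1b, 0.03 for Rgs9, 0.04 for Pde10a, 0.01 for Penk and 0.02 for Scn4b. Without male 5xCHI + vehicle replicate 6, the high library of the vehicle side, it was 0.37 for Ppp1r1b, 0.48 for Rgs9, 0.32 for Pde10a and 0.31 for Penk. Without all 9 libraries high in Rgs9, the median of the 6 was 0.02, with Ppp1r1b at 0.13 ± 0.10, Rgs9 at -0.04 ± 0.09 and Pde7b at 0.20 ± 0.12 (SE). The 9 were picked on Rgs9, so its value and SE there are a description. Pde7b moved least: over the 58 fits that each leave out a library it lay between 0.17 and 0.27.

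**Figure D5:**
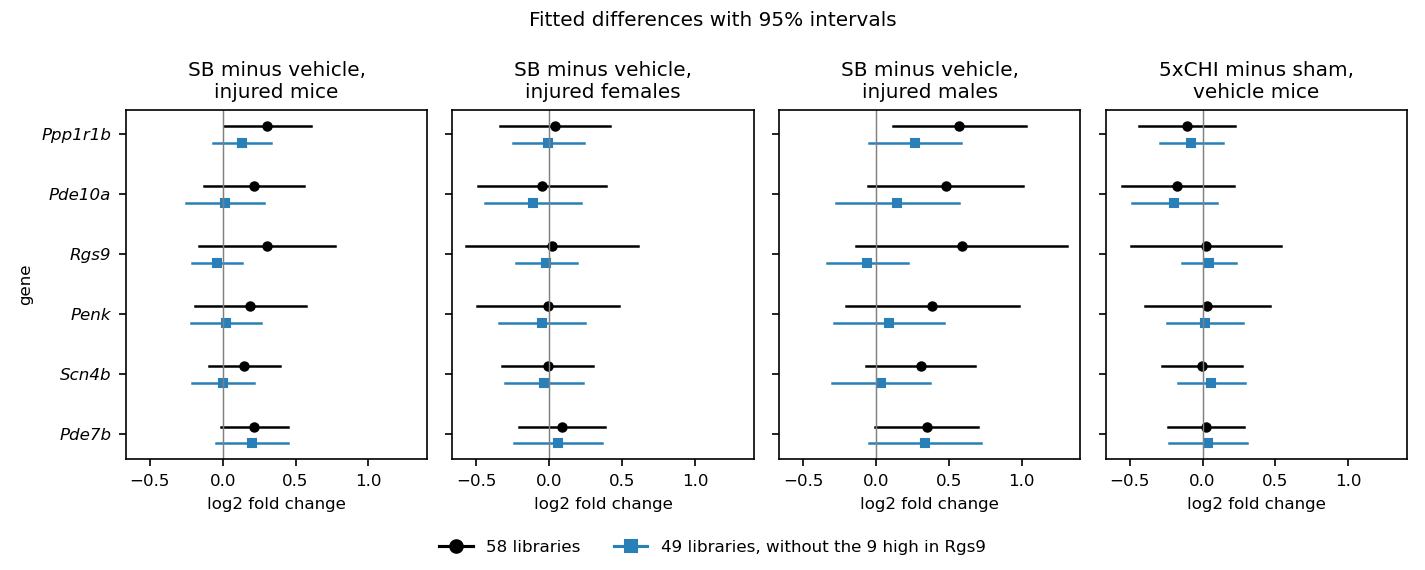
Points are fitted log2 fold changes and lines their 95% intervals, with all 58 libraries (black) and without the 9 high in Rgs9 (blue), for SB minus vehicle in injured mice, in injured females and in injured males, and for 5xCHI minus sham in vehicle mice. In injured males the black points lie at 0.31 to 0.59, and the blue ones at -0.06 to 0.34. The blue values of Rgs9 come from libraries cut on Rgs9 itself and are a description.

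The same model gave a difference for each sex. In injured males the log2 fold change for SB was positive for all 6 genes, from 0.31 for Scn4b to 0.59 ± 0.36 for Rgs9, with Ppp1r1b at 0.57 ± 0.23 (SE; unadjusted p = 0.0154, adjusted p = 1 by edgeR). In injured females it ran from -0.05 to 0.09, with 3 of 6 positive. No gene passed in males (0% of genes; 181 at an unadjusted p below 0.05; 0 by DESeq2) or in females (0%; 695; 0). The difference between the sexes was itself not called for any of the 6 (0% of genes; 88 at an unadjusted p below 0.05; 0 by DESeq2), and was 0.53 ± 0.30 for Ppp1r1b and 0.57 ± 0.46 for Rgs9, male minus female. The median of the 6 for that sex difference was 0.46 over all libraries, 0.12 without male 5xCHI + SB replicate 1 and 0.085 without cohort M2, and Rgs9 had -0.04 without the 9 libraries. Without male 5xCHI + SB replicate 1, the values in males were 0.24 for Ppp1r1b, 0.03 for Rgs9 and 0.12 for Pde10a.

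Injury itself was compared in vehicle mice. Rgs9 had 9.98, 13.3 and 46.8 CPM (lowest, median and highest) in 20 libraries of 5xCHI + vehicle, and 8.00, 13.4 and 47.2 CPM in 14 libraries of sham + vehicle. Ppp1r1b had 56.4, 76.6 and 157 CPM in 5xCHI + vehicle, and 65.3, 76.7 and 176 CPM in sham + vehicle. The fitted log2 fold changes, 5xCHI over sham, ran from -0.17 ± 0.19 for Pde10a to 0.03 ± 0.21 for Penk (SE), with 3 of 6 positive and a median of 0.01. None of the 6 passed (0% of genes by edgeR; 169 at an unadjusted p below 0.05; 0 by DESeq2).

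By sex, all 6 values of 5xCHI over sham were negative in vehicle females, from -0.32 ± 0.16 for Scn4b (SE; unadjusted p = 0.0572, adjusted p = 1 by edgeR) to -0.05 for Pde7b. In vehicle males 5 of 6 were positive, up to 0.32 ± 0.22 for Scn4b. Without the 9 libraries high in Rgs9, 3 of 6 were positive in females and 3 of 6 in males. The male median of 0.12 was -0.04 without male 5xCHI + vehicle replicate 6. The male minus female difference of Scn4b was 0.64 ± 0.27 (unadjusted p = 0.0245, adjusted p = 0.786 by edgeR). For that sex difference the median of the 6 was 0.27 over all libraries and -0.14 without the 3 cohorts that hold the 9. No gene passed in females (0%; 303 at an unadjusted p below 0.05; 0 by DESeq2), in males (0%; 342; 0) or for the sex difference (0%; 591; 0).

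The 5 sham + SB libraries came from 4 cohorts, 3 of which hold the high libraries. Rgs9 had 15.0, 15.4 and 40.9 CPM in the 3 females and 35.3 and 12.6 CPM in the 2 males of sham + SB, against 8.00, 13.4 and 47.2 CPM (lowest, median and highest) in sham + vehicle. Ppp1r1b had 51.9, 94.3 and 166 CPM in the females and 161 and 112 CPM in the males of sham + SB, against 65.3, 76.7 and 176 CPM in sham + vehicle. The log2 fold changes for SB in sham mice ran from -0.03 to 0.14 once cohort was in the model, and their median was 0.01. With no cohort term that median was 0.39. No gene passed for SB in sham mice (0%; 676 at an unadjusted p below 0.05; 0 by DESeq2), for the injury by SB interaction (0%; 133; 0) or for 5xCHI + SB over sham + vehicle (0%; 1211; 0), and the medians of the 6 genes were 0.23 for the interaction and 0.21 for 5xCHI + SB over sham + vehicle. The interaction median was -0.08 without male 5xCHI + SB replicate 1 and -0.13 without the 9 libraries. That of 5xCHI + SB over sham + vehicle was 0.05 without that library and 0.0030 without the 3 cohorts that hold the 9.

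The further striatal genes gave values of the same kind. For SB in injured mice 14 of 14 were positive, where 52.2% of all genes were. None was called, and the median log2 fold change of the 14 was 0.12. All but Ptpn5 and Ano3 were highest in male 5xCHI + SB replicate 1, so the 14 are not separate results. Rasd2 had 0.20 ± 0.10 and Pde1b 0.13 ± 0.08 (SE), with adjusted p of 0.714 and 0.739 by edgeR. Of the 28 genes of the dopamine and cyclic AMP pathway, 14 were positive, none was called and the median was -0.000181. Of the 14 myelin genes none was positive or called, with a median of -0.34. Their summed level was 2740 to 9570 CPM in 5xCHI + SB and 5700 to 13500 CPM in 5xCHI + vehicle libraries, and its part in the results of the 6 genes was not tested.

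The counts behind these values were high enough that counting error was small next to the spread between animals. The lowest count of any of the 6 genes in a library was 288, for Rgs9, and the lowest mean count was 716.2, also for Rgs9. The 58 libraries held between 28316280 and 49158277 counts in the listed genes. In the GENCODE M21 annotation an exon of Ppp1r1b overlaps 1700003D09Rik and one of Penk overlaps A830012C17Rik on the opposite strand. The sources used here do not give the strand setting of the counting, so reads of those pairs cannot be told apart. The other 4 genes have no such overlap.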

How the data were processed

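The deposited table holds raw read counts per gene for 9636 genes in 58 libraries of mouse somatosensory cortex, made from poly(A) RNA with a directional kit per the labels' protocols. The submitters' processing notes name STAR, featureCounts, DESeq2 and the build GRCm39 (mm39); the sources used here give no versions or settings. The table holds no gene of low count: the smallest count was 101 and the smallest mean count 270.1.

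Counts were analysed in R 4.3.3 with edgeR 4.0.16: TMM scaling, filterByExpr (0 genes removed) and the robust quasi-likelihood test. The model had 8 groups (sex by injury by treatment) and cohort within sex, with 14 coefficients and 44 residual degrees of freedom. A comparison that spans both sexes averages the female and the male difference. Tests were two-sided, with Benjamini-Hochberg adjustment over 9636 genes at 0.05. Log2 CPM used a prior count of 2. Limma 3.58.1 and DESeq2 1.42.0 served as alternatives.

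The 6 members and all lists were chosen with earlier results of these data known. The text names all 6 genes, measured genes of a further striatal list, the 8 most and 4 least like the 6, up to 3 genes per other list, and libraries extreme for at least 4 genes; some genes so chosen are not reported here. The order of Rgs9 levels was seen before the threshold of 2 times the median was set. Labels give each library as a separate sample; if any shared an animal, p-values would measure a partly technical spread. No 2 libraries of a group were within sampling noise (chi-square of at least 9.83 per degree of freedom). The tests were checked on simulated counts with known changes. Promoter sequences are RefSeq's, build GRCm38.p6; no coordinate was carried between builds.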

Additional observations from a re-analysis of the deposited data

Results flagged for a closer look

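In each sex and condition with 4 to 10 libraries, 24 sets of log2 CPM values (6 genes in 4 groups) were searched for a library far from the rest, by Dixon's ratio of its gap to the range of the group. Chance marks about 1 group in 20, and 5 of 24 were marked. The 6 genes share the same libraries, so the 24 sets are not independent and the count is a description. Pde10a in male 5xCHI + SB replicate 1, at 356 CPM, lay above the other 7 libraries of its group. Male 5xCHI + vehicle replicate 6 lay above the other 7 of its group for Rgs9, at 38.1 CPM, and for Penk, at 105 CPM. Both libraries are among the 9 picked for high Rgs9, so the mark for Rgs9 is a description. In male sham + vehicle, replicate 2 was the highest for Ppp1r1b at 92.7 CPM, next to 74.4 CPM in the following library. Replicate 4 of that group was the lowest for Pde7b at 28.4 CPM, next to 40.8 CPM in the following library. Neither of those 2 is among the 9, and replicate 2 is 1 of the 4 libraries far out on a principal component.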

How the results depend on the processing

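None of the 6 genes was called in any of the 11 condition comparisons in any of 80 fits (860 results), which include RLE size factors, library totals alone, no filter, a mean count of at least 1000 (which leaves out Rgs9), no cohort term, DESeq2, limma voom with quality weights, each sex alone, and each cohort and each library left out. Limma voom called 1 gene of the table for SB in injured mice, 2 in injured females and 8 for the sex difference of injury. The 3 alternatives chosen after seeing the data left out the 9 libraries high in Rgs9, the 3 cohorts that hold them, or 4 libraries far out on a principal component.

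The female cohort count of 5 was 1 without cohort F1, 2 without the 9 libraries and 1 without the 3 cohorts, and 5 to 6 over fits leaving out a library; 2107 to 6939 genes of the table were called, against 4816. The male count of 1 was 2 without M1, 0 without M2, 0 without M4, 0 with males alone, 0 without the 9 libraries, 0 without the 3 cohorts and 3 with limma voom. It was 0 to 2 leaving out a library, with 2 in the absence of male 5xCHI + SB replicate 2; 0 to 3045 genes of the table were called, against 369. Of the 15 gene pairs, 14 passed over all 58 libraries (residual log2 CPM), 0 without the 9 libraries, 1 without the 3 cohorts and 12 to 15 leaving out a library. The SD of log2 CPM without the 9 libraries was 0.29 for Ppp1r1b, 0.29 for Rgs9 and 0.32 for Penk, and without the 3 cohorts 0.30 for Ppp1r1b, 0.39 for Pde10a, 0.31 for Rgs9 and 0.35 for Penk. The cause was not tested.

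Fold changes that turned sign were all uncalled. For SB in injured mice, Penk was -0.0059 without cohort M2; Rgs9 was -0.039 without the 9 libraries; Rgs9 was -0.037, Penk -0.0018 and Scn4b -0.081 without the 3 cohorts. In injured males Rgs9 was -0.058 without the 9 libraries and -0.091 without the 3 cohorts, where Scn4b was -0.012. For injury in vehicle mice, whose values were near 0, Scn4b was 0.095 without F1, 0.092 without M3, 0.031 without M4 and 0.062 without the 9 libraries, and Ppp1r1b was 0.039 without M3. Rgs9 was -0.012 without F2, -0.087 without F3, -0.12 without M1, -0.045 without the 4 far libraries and -0.21 with limma voom. Pde7b was -0.044 without F2, -0.078 without M1, -0.074 without the 4 far libraries, -0.018 without the 3 cohorts and -0.091 with limma voom. Penk was -0.0038 without F4 and -0.056 without M1. Leaving out a library for that comparison gave -0.28 to 0.012 for Pde10a, -0.11 to 0.13 for Rgs9, -0.073 to 0.13 for Penk, -0.085 to 0.072 for Scn4b and -0.043 to 0.097 for Pde7b. The cause was not tested.

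The replicate numbers do not pair the libraries: same-numbered libraries had correlations of their deviations from -0.60 to 0.45, and few pairs shared a cohort. With the replicate block, 4 of 6 genes were called among female cohorts and 1 of 6 among male cohorts (2602 and 90 genes of the table). With it, 10 of 15 pairs passed. For injury in vehicle mice, Pde10a was then 0.10, Scn4b 0.14, Rgs9 0.33 and Penk 0.21. In vehicle males the median of the 6 for injury was 0.41, against 0.12 without the block. No other call changed.

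Of 26 further striatal genes, 12 had no row under their names in the count table, the dopamine receptors among them. Cohort, sex and library number overlap, so their parts cannot be told apart. Male sham groups were small, with 2 SB and 5 vehicle libraries.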
